A study of Mus musculus with 6 samples.

Results

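The amino acid and GABA transporters described here are the genes of the solute carrier families Slc3, Slc6, Slc7, Slc36, Slc38 and Slc43, chosen by their symbols alone. The choice gave 57 of the 22086 genes that the counts cover. All but 2 were placed in a role group of transporters. Slc6a21 is a further Slc6 family symbol, and Slc7a6os is no transporter but the gene on the opposite strand beside Slc7a6. They were measured in polysomal mRNAs of astrocytes from the hippocampus of mice aged 6 weeks, recovered by translating ribosome affinity purification (TRAP), in which eGFP-tagged ribosomes are immunoprecipitated. All mice carried the Aldh1L1-RPL10aGFP transgene, which places the tagged ribosomal protein under the astrocyte promoter Aldh1l1, and both groups were homozygous for the floxed Cx43 allele (Cx43 fl/fl). The 3 Cx43KO libraries came from mice that also carried Gfap Cre, which deletes Cx43 wherever the human GFAP promoter is or has been active, and the 3 Cx43FL libraries from littermates. Nothing in the labels ties a library to a single animal, so that p-values measure the spread between libraries.

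Amino acid transporters set how much transmitter and fuel amino acid stays outside the cell. GABA carriers of the Slc6 family, such as GAT-3 (Slc6a11) of astrocytes, use the sodium gradient to clear GABA, the main inhibitory transmitter. Light chains of the Slc7 family reach the membrane bound to a heavy chain of the Slc3 family, and exchange 1 amino acid for another. Carriers of the Slc38 family move glutamine with sodium, out of astrocytes through system N (Slc38a3) and into neurons mainly through system A (Slc38a1 and Slc38a2), which closes the glutamine cycle between both cell types.

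Each library held between 33423491 and 77030398 counts on transcripts, and the counts on genes, each taken by its most counted transcript, ran from 14787303 to 34733473. Levels are given as CPM, counts per M counts on tested genes with TMM scaling of the libraries, and values of a genotype are listed in the order of replicates 1 to 3. Gja1, the gene targeted for deletion, lay at 82.3 to 92.0 CPM in the littermates and at 87.2 to 98.4 CPM in the knockouts, and these counts did not show its reduction. Counts per transcript give no position of the reads along it, and why Gja1 was not lower in the knockouts was not tested. Cx43KO therefore stands for the label of these libraries throughout. Cx43KO replicate 1 lay apart from the other libraries on the first principal component. The summed CPM of 12 astrocyte markers was 13833 in that library and 26842 to 38397 in the other 5, and the summed CPM of 15 neuron markers was 8220 against 2721 to 4700. Oligodendrocyte markers summed to 2672 CPM there and to 600 to 1021 CPM in the other libraries. The 10 choroid plexus markers, led by Ttr, summed to 617 CPM in Cx43FL replicate 2, to 10953 and 16693 in Cx43FL replicates 1 and 3, and to 27700 to 36091 in Cx43KO. In such bulk samples fewer cells of a type and less RNA per cell cannot be told apart. The authors numbered the libraries of each genotype in a series of its own. When each library was made is not given in the sources used here, so that an effect of it could not be separated from genotype.

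Of the 57 genes, 49 had at least 1 count and 36 passed the filter on low counts and were tested. The 8 genes without a count in any library were Slc36a3, Slc38a8, Slc6a4, Slc6a14, Slc6a18, Slc7a9, Slc7a12 and Slc7a13. A floor of 3 counts is worth 0.0864 to 0.203 CPM in these libraries before any TMM scaling and covers counting error only, so that these genes were not detectable above that floor. They include the serotonin transporter Slc6a4, and the other monoamine carriers Slc6a2 and Slc6a3 had 2 counts and 1 count over the 6 libraries. Another 13 genes were counted but not tested, with at most 98 counts in all. Among them Slc6a19, a neutral amino acid carrier of gut and kidney, had 19, 79 and 0 counts in Cx43FL and none in Cx43KO. The glycine transporter Slc6a5 had 50 counts, all of them in Cx43KO replicate 2.

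Levels between genes were compared as CPM per kb of transcript, over a range from below 1 to above 100 among the tested genes. Slc6a11 had 61.6 ± 9.04 CPM per kb in littermates and 84.7 ± 20.2 among those labelled Cx43KO (SD, n = 3 libraries each). The heavy chain Slc3a2 and the creatine transporter Slc6a8 were close to it, with 57.1 ± 15.9 and 53.9 ± 5.91 CPM per kb in Cx43FL, and the 3 genes overlapped within their spread. Below them came Slc3a1, Slc38a3, Slc7a10, Slc7a6os, Slc7a11, Slc38a2, Slc38a1 and Slc7a2, from 37.9 down to 10.3 CPM per kb over all libraries.

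**Figure D1:**
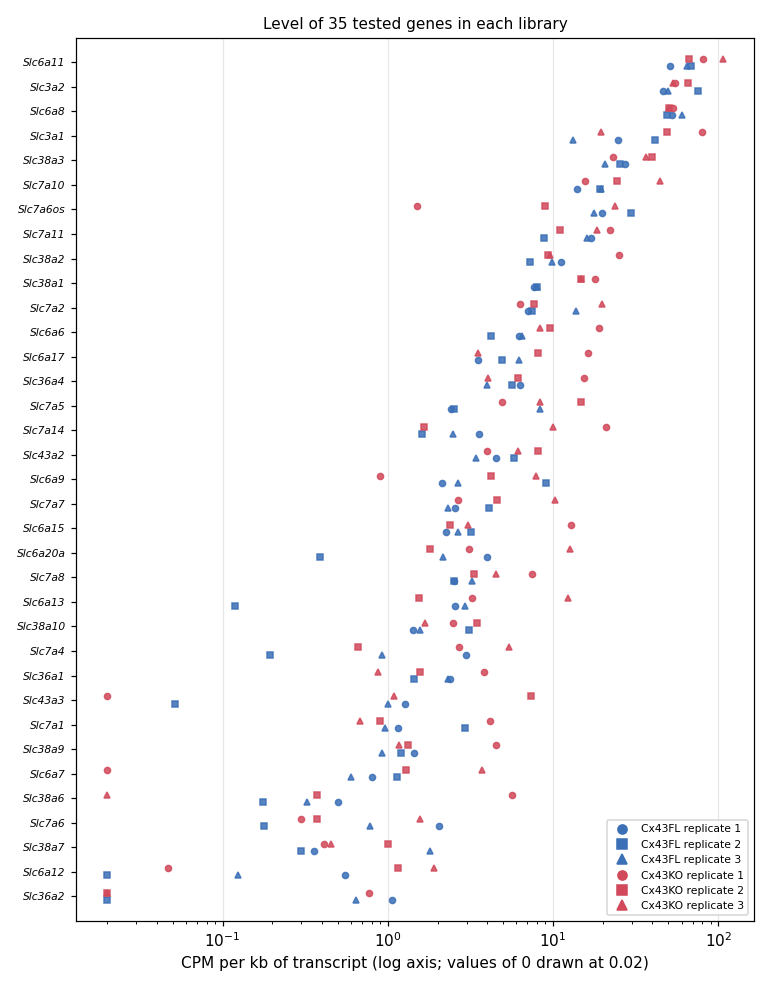
CPM per kb of transcript (log axis) of 35 tested genes, ordered by their mean over the 6 libraries, with Cx43FL libraries in blue and Cx43KO libraries in red and a symbol for each replicate. Slc6a11, Slc3a2 and Slc6a8 head the order, with Slc6a11 at 61.6 ± 9.04 CPM per kb in Cx43FL, and the spread between libraries widens among genes of low level.

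Genotypes were compared to ask whether the polysomal level of these transporters differed between the libraries labelled Cx43KO and Cx43FL. No gene of the 36 passed edgeR's quasi-likelihood test at a Benjamini-Hochberg adjusted p below 0.05, and their adjusted p ranged from 0.490 to 0.995. Among all 13545 tested genes that threshold called 0.00738% as higher in Cx43KO and 0% as lower. DESeq2 with its prior, the tool of the study, called 0 of the 36 at that threshold, against 0.834% of all tested genes higher and 0.126% lower. At an unadjusted p below 0.05, 3 genes were higher in Cx43KO (Slc38a1, Slc6a6 and Slc7a14) and 0 were lower, that is 8.33% and 0% of the 36, beside 5.66% and 2.67% of all tested genes. DESeq2 with its prior gave the same 3 genes and 0 lower ones, beside 7.84% and 3.77% of all tested genes. The counts of single genes past this limit were thus close to the background.

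The log2 fold changes of the 36 ranged from -1.18 (Slc36a2) to 2.57 (Slc38a6), and 23 of them exceeded their standard error in size. Both ends of the range rest on few counts and depend on Cx43KO replicate 1. Without that library the value of Slc38a6 turned to -0.84. That of Slc36a2 fell to -7.83 (± 2.94 SE), where the remaining Cx43KO libraries had 0 counts, so that the counts set no bound on its size. Of these values 30 were positive and 6 negative, with a median of 0.68, whereas 54.4% of all tested genes were positive and their median was 0.071. Markers of other cell types moved as well. Of 15 neuron markers 14 were positive (median 0.72, 5 with an unadjusted p below 0.05), of 10 oligodendrocyte markers 9 (median 0.58) and of 9 tested microglia markers 7 (median 0.88), whereas 5 of 12 astrocyte markers were positive (median -0.16). Their part in the median of the 36 was not tested. Genes with few counts can pass the filter through the group in which they are high, and this median is given as a description only. Among genes with 10 counts or more throughout, the median was 0.45 over 29 of these genes and 0.039 over all genes tested. Without Cx43KO replicate 1 it was 0.37, over 38 genes, and without Cx43KO replicate 3 it was 0.36, over 39. Of the 36 genes, 16 lay above every Cx43FL library in Cx43KO replicate 1, 15 in replicate 2 and 17 in replicate 3, which is 44.4%, 41.7% and 47.2%, beside 37.9%, 28.7% and 30.7% of all tested genes. Below every Cx43FL library lay 6, 2 and 4, which is 16.7%, 5.56% and 11.1%, beside 36.6%, 27.5% and 29.1% of all tested genes. Of the 36, 3 were above every Cx43FL library in all of them (Slc38a1, Slc6a6 and Slc7a8), or 8.33%, against 8.08% of all tested genes, and 0 were below, against 7.45%. Of these shares of genes without overlap, the one above was close to the background and the one below lay under it. Neither was tested.

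**Figure D2:**
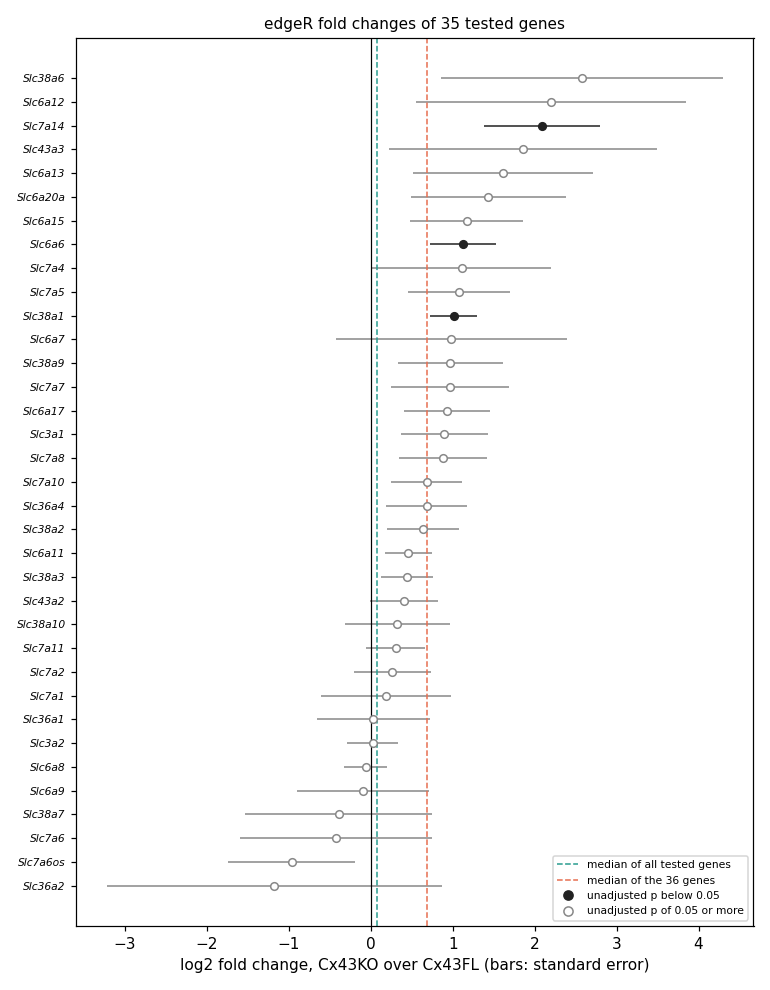
Log2 fold changes of Cx43KO over Cx43FL from edgeR for 35 tested genes, with bars of the standard error, filled points for an unadjusted p below 0.05, and dashed lines at the median of all tested genes (0.071) and of the 36 tested (0.68). Most points lie to the right of 0, and that of Slc38a1 lies farther from 0 than its bar is long.

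The GABA transporter Slc6a11 (GRCm38 chromosome 6, 114131241 to 114249952) had 212, 283 and 268 CPM in the 3 Cx43FL libraries and 333, 276 and 440 CPM in those of Cx43KO, where replicate 2 lay within the Cx43FL range. Its log2 fold change was 0.46 (± 0.28 SE, edgeR adjusted p = 0.646), and it ranged from 0.26 to 0.60 with each library left out.

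The GABA carriers Slc6a12, which also takes up betaine, and Slc6a13 (GAT-2), known from meninges and other borders of the brain, lie side by side on the same chromosome (121343076 to 121365775 and 121300227 to 121337733). Slc6a13 had 5.67, 0.265 and 6.58 CPM in littermates and 7.20, 3.46 and 27.6 CPM in Cx43KO. It was thus lowest in Cx43FL replicate 2 and at 4.20 times the highest Cx43FL library in Cx43KO replicate 3. Slc6a12 had 22, 0 and 5 counts in the 3 Cx43FL libraries and 2, 76 and 162 counts in those of Cx43KO, and both genotypes overlapped. The log2 fold changes were 1.61 (± 1.10 SE) for Slc6a13 and 2.20 (± 1.65 SE) for Slc6a12, with adjusted p of 0.668 and 0.698 from edgeR's test. That of Slc6a12 was 4.01 without Cx43FL replicate 1 and 1.42 without Cx43KO replicate 3.

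The imino acid carrier Slc6a20a had a pattern like that of Slc6a13, with 10.9, 1.06 and 5.86 CPM in littermates and 8.51, 4.90 and 34.8 CPM in Cx43KO. Cx43FL replicate 2, the lowest for both, was also the library with the fewest choroid plexus counts. Cx43KO replicate 3, the highest for both, had the lowest choroid plexus sum of the Cx43KO libraries (27700 CPM, against 36091 and 29330). Leptomeningeal fibroblast markers summed to 668, 486 and 662 CPM in Cx43FL and to 954, 815 and 1543 CPM in Cx43KO, and were thus highest in Cx43KO replicate 3, as were both carriers. In Cx43KO replicate 2 both marker sums exceeded every Cx43FL library, whereas both carriers lay below Cx43FL replicates 1 and 3. Of these marker lists, 10 choroid plexus and 9 fibroblast genes could be tested, 10 and 8 had a positive log2 fold change, and 9 and 1 were without overlap and higher in Cx43KO. The part of such cells in the counts of Slc6a13 and Slc6a20a was not tested. Without Cx43KO replicate 3 the log2 fold change of Slc6a13 was 0.35 and that of Slc6a20a 0.17.

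**Figure D3:**
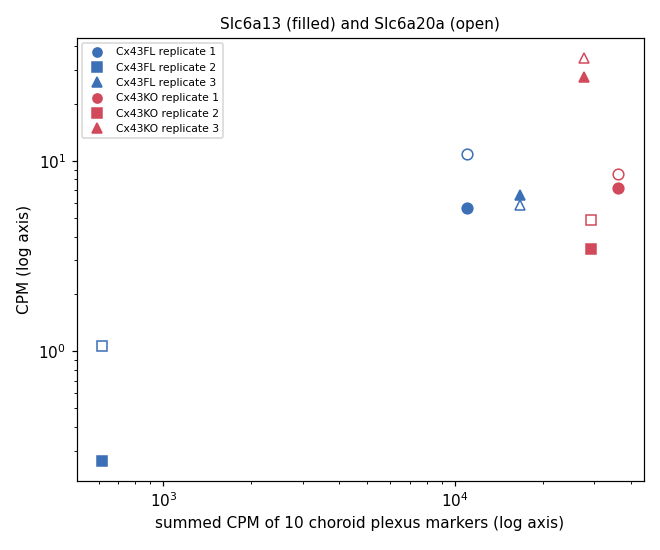
CPM of Slc6a13 (filled) and Slc6a20a (open) against the summed CPM of 10 choroid plexus markers in each library, both axes on a log scale, with blue for Cx43FL, red for Cx43KO and a symbol for each replicate. Cx43FL replicate 2 is lowest on both axes, at 0.265 and 1.06 CPM. Cx43KO replicate 3 is highest in both genes but lowest of the Cx43KO libraries in the marker sum.

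Slc6a6, the taurine transporter (chromosome 6, 91684053 to 91759066), had 38.7, 26.2 and 39.9 CPM in the 3 Cx43FL libraries and 117, 59.6 and 51.3 CPM in those of Cx43KO. The genotypes did not overlap (p = 0.1 in an exact 2-sided permutation test, the smallest that 3 libraries against 3 allow). The log2 fold change was 1.12 (± 0.41 SE, unadjusted p = 0.0185 and adjusted p = 0.540 from edgeR), and 0.66 without Cx43KO replicate 1. Slc6a8, which takes up creatine, did not share this pattern. It had 207, 194 and 239 CPM in littermates and 211, 201 and 199.5 CPM in Cx43KO, all within the range of the littermates, and its log2 fold change was -0.065 (± 0.26 SE, edgeR adjusted p = 0.955). The glycine transporter Slc6a9 spread widely in both genotypes, with 7.44, 31.7 and 9.25 CPM in littermates and 3.10, 14.7 and 27.3 CPM in Cx43KO (log2 fold change -0.098 ± 0.81 SE, edgeR adjusted p = 0.982). Its transcript shares 1429 of 3479 bases with Ccdc24 on the opposite strand, which was likewise highest in Cx43FL replicate 2 and lowest in Cx43KO replicate 1, at 21.1 and 1.61 CPM. Whether the counting used the strand is not given in the sources used here, so that reads of the shared part cannot be assigned.

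Among the neutral amino acid carriers of Slc6, Slc6a15 and Slc6a17 are known from neurons, the latter on synaptic vesicles. Slc6a17 had 22.3, 30.9 and 39.5 CPM in littermates and 103, 51.1 and 22.1 CPM in Cx43KO, and Slc6a15 had 8.17, 11.5 and 9.57 CPM in the 3 Cx43FL libraries and 46.4, 8.64 and 11.0 CPM in those of Cx43KO. Both were highest in Cx43KO replicate 1, and both overlapped between genotypes. That library also had the highest sums of neuron, oligodendrocyte, oligodendrocyte precursor, microglia, endothelial, mural and choroid plexus markers. The part of such cells in the counts of both genes was not tested. Without that library the log2 fold change of Slc6a15 was 0.0026 and that of Slc6a17 0.24, against 1.17 and 0.92 with it. The neuronal proline carrier Slc6a7 went the other way, with 0 counts in Cx43KO replicate 1 and 4.34 and 12.5 CPM in replicates 2 and 3. In littermates it had 2.02 to 3.85 CPM.

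Of the heavy chains, Slc3a2 (4F2hc) had 84.2, 137 and 90.3 CPM in littermates and 99.9, 119 and 97.6 CPM in Cx43KO. All 3 Cx43KO libraries lay within the Cx43FL range, and the log2 fold change was 0.021 (± 0.31 SE, edgeR adjusted p = 0.992). Its direction turned to -0.028 with upper-quartile scaling. Slc3a1, the partner of Slc7a9 in the kidney, had 55.9, 94.6 and 30.02 CPM in the 3 Cx43FL libraries and 180, 112 and 44.4 CPM in those of Cx43KO, although Slc7a9 itself had no count. Slc3a1 shares 601 bases, or 26.5% of the transcript, with Prepl on the opposite strand. Prepl was the higher in every library, at 102, 140 and 111 CPM in littermates and 281, 205 and 77.2 CPM in Cx43KO, and was highest in Cx43KO replicate 1, as was Slc3a1. Reads of the shared part cannot be assigned to either gene. The value of Slc3a1 (log2 fold change 0.90 ± 0.53 SE, edgeR adjusted p = 0.635) was 0.37 without Cx43KO replicate 1.

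Of the 10 light chains, 6 were tested, 5 with a positive log2 fold change, and 0 of these had an unadjusted p below 0.05. Slc7a11 (xCT), which takes up cystine in exchange for glutamate, was the most counted, with 156, 81.5 and 149 CPM in the 3 Cx43FL libraries and 204, 102 and 171 CPM in those of Cx43KO. Its libraries overlapped, and the log2 fold change was 0.31 (± 0.36 SE, edgeR adjusted p = 0.809). It was 0.046 without Cx43FL replicate 2 and 0.083 without Cx43KO replicate 1. Slc7a10 (Asc-1), an exchanger of glycine and serine, had 27.2, 37.4 and 38.3 CPM in littermates and 30.6, 47.9 and 86.6 CPM in Cx43KO, and a log2 fold change of 0.68 (± 0.43 SE, edgeR adjusted p = 0.650), which was 0.19 without Cx43KO replicate 3. It was highest in Cx43KO replicate 3 and, among the Cx43KO libraries, lowest in replicate 1. Its transcript shares 377 of 1953 bases with Lrp3 on the opposite strand, which was highest in Cx43KO replicate 3 too, at 41.1 CPM.

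The light chains of the large neutral amino acid carriers were less counted. Slc7a5 (LAT1), best known from brain endothelium, had 8.50, 8.82 and 29.2 CPM in the 3 Cx43FL libraries and 17.3, 51.8 and 29.2 CPM in those of Cx43KO, with a log2 fold change of 1.08 (± 0.62 SE, edgeR adjusted p = 0.632). It was 0.58 without Cx43KO replicate 2 and 1.92 without Cx43FL replicate 3. The 10 endothelial markers summed to 7.95 to 11.9 CPM in littermates and 10.5 to 23.7 CPM in Cx43KO, and of these sums that of Cx43KO replicate 2, the highest for Slc7a5, was the lowest among the Cx43KO libraries. Slc7a8 (LAT2; chromosome 14, 54722209 to 54781946) had 10.3, 10.3 and 13.3 CPM in the 3 Cx43FL libraries and 30.5, 13.6 and 18.4 CPM in those of Cx43KO. All Cx43KO libraries lay above the Cx43FL libraries (p = 0.1, exact 2-sided permutation test), though replicate 2 exceeded the highest of them by a factor of 1.03 only. The log2 fold change was 0.88 (± 0.53 SE, edgeR adjusted p = 0.636), and 0.50 without Cx43KO replicate 1. Slc7a7, a light chain for cationic and neutral amino acids, had 4.95 to 8.76 CPM in littermates and 5.65 to 22.0 CPM in Cx43KO, which overlapped. Its transcript shares 232 of 2132 bases with Oxa1l on the opposite strand, and reads of the shared part cannot be assigned. Oxa1l had 97.4, 102 and 107 CPM in littermates and 86.7, 118 and 183 CPM in Cx43KO, and both genes were highest in Cx43KO replicate 3.

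**Figure D4:**
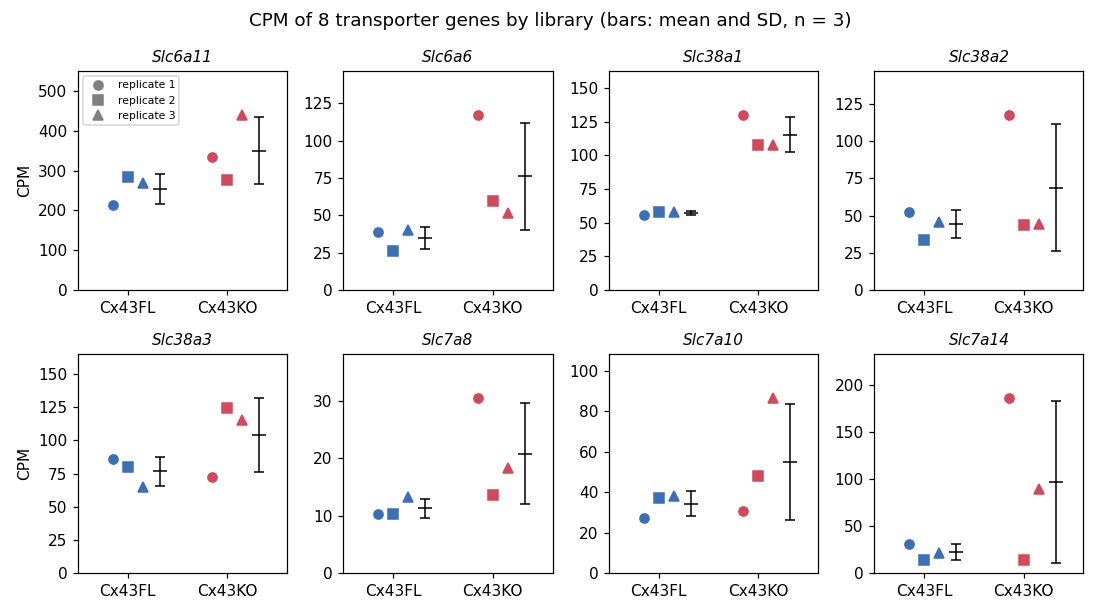
CPM of 8 genes in each library, with a symbol for each replicate and bars for the mean and SD of 3 libraries per genotype, on axes that start at 0. Slc38a1, Slc6a6 and Slc7a8 have all Cx43KO points above the Cx43FL points, at 107 to 130 against 55.7 to 58.0 CPM for Slc38a1, whereas Slc6a11, Slc38a2, Slc38a3, Slc7a10 and Slc7a14 overlap.

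In the cationic group, Slc7a14 (chromosome 3, 31202858 to 31310378), a family member known from neurons and retina, had 31.6, 14.3 and 22.1 CPM in littermates and 186, 14.7 and 89.5 CPM in Cx43KO. Replicates 1 and 3 were thus far above the Cx43FL libraries and replicate 2 within their range. The log2 fold change was 2.09 (± 0.71 SE, unadjusted p = 0.0131 and adjusted p = 0.540 from edgeR). It was 1.20 without Cx43KO replicate 1 and 2.60 without replicate 2. The neuron marker sums of the Cx43KO libraries, 8220, 3407 and 4700 CPM, had the same order as the gene. In littermates the orders differed, the gene being highest in replicate 1, where the neuron sum was lowest at 2721 CPM. The part of neurons in the counts of Slc7a14 was not tested. Slc7a2, a carrier of arginine, had 53.7, 56.6 and 105 CPM in the 3 Cx43FL libraries and 48.0, 58.8 and 151 CPM in those of Cx43KO, and its log2 fold change of 0.26 (± 0.47 SE) turned to -0.42 without Cx43KO replicate 3. The arginine and lysine carrier Slc7a1 and the family member Slc7a4 overlapped between genotypes as well, with adjusted p of 0.962 and 0.770 from edgeR.

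Slc38a1, a system A carrier of glutamine (chromosome 15, 96571418 to 96642913), was separated between genotypes with little spread among the littermates. It had 55.7, 58.0 and 57.8 CPM in littermates and 130, 108 and 107 CPM in Cx43KO. The mean was 57.2 ± 1.32 CPM in Cx43FL and 115 ± 13.0 CPM in Cx43KO (SD, n = 3 libraries each), and all Cx43KO libraries lay above the Cx43FL libraries (p = 0.1, exact 2-sided permutation test). The log2 fold change was 1.01 (± 0.29 SE, unadjusted p = 0.00497 and adjusted p = 0.490 from edgeR), and stayed between 0.91 and 1.06 with each library left out in turn. DESeq2 gave an adjusted p of 0.0787 with its prior. The study had listed this gene among the raised ones from the same 6 libraries, so that its direction is not independent evidence. The marker sums of neurons, microglia, leptomeningeal fibroblasts and choroid plexus likewise did not overlap between genotypes and were higher in Cx43KO, and their part in Slc38a1, Slc6a6 and Slc7a8 was not tested. For neurons these sums were 2721, 3189 and 3347 CPM in littermates against 8220, 3407 and 4700 CPM. Its 3 transcripts carried nearly the same counts, 10873, 10852 and 10842 in all, although their lengths range from 3183 to 7266 bases. On the shortest of them its level was 27.0 instead of 11.9 CPM per kb.

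The other carriers of systems A and N were less separated. Slc38a2, next to Slc38a1 on the chromosome, had 52.4, 34.0 and 45.9 CPM in the 3 Cx43FL libraries and 118, 43.5 and 44.7 CPM in those of Cx43KO. Only Cx43KO replicate 1 was outside the Cx43FL range, and the log2 fold change of 0.64 (± 0.44 SE, edgeR adjusted p = 0.674) was -0.0031 without it. Slc38a3 (SNAT3), through which astrocytes release glutamine, had 86.2, 79.8 and 64.7 CPM in littermates and 72.8, 125 and 116 CPM in Cx43KO, and its log2 fold change was 0.44 (± 0.32 SE, edgeR adjusted p = 0.687). Here replicate 1 was the only Cx43KO library within the Cx43FL range, the reverse of Slc38a2. Slc38a4 and Slc38a5 had at most 25 and 55 counts in any library and were not tested. The less counted Slc38a7 and Slc38a10 overlapped between genotypes, with edgeR adjusted p of 0.931 and 0.898.

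The lysosomal carrier Slc38a9, a sensor of arginine for the kinase mTORC1, had 12.8, 10.7 and 8.27 CPM in the 3 Cx43FL libraries and 40.1, 11.9 and 10.4 CPM in those of Cx43KO. It was thus high in Cx43KO replicate 1 alone, and its log2 fold change was 0.97 (± 0.64 SE, edgeR adjusted p = 0.658) and 0.067 without that library. Of the marker lists of other cell types, all but leptomeningeal fibroblasts were highest in that library too, and their part in Slc38a9 was not tested. Slc38a6 (17.0 CPM) and the proton-coupled carrier Slc36a4 (101 CPM) were likewise highest in Cx43KO replicate 1, at 11.2 and 2.43 times the highest Cx43FL library, and the log2 fold change of Slc36a4 was 0.68 with that library and -0.070 without it. Of the proton-coupled carriers, Slc36a1 had 4.60 to 20.1 CPM in Cx43KO against 7.56 to 12.4 CPM in Cx43FL, and the glycine and proline carrier Slc36a2 had 39, 0 and 24 counts in Cx43FL and 30, 0 and 0 in Cx43KO. In the Slc43 family, Slc43a2, a facilitator of large neutral amino acids, had 24.5 to 41.5 CPM in littermates and 28.6 to 57.8 CPM in Cx43KO. Slc43a3, known as a carrier of purine nucleobases, had 0, 19.0 and 2.81 CPM in Cx43KO and 3.29, 0.133 and 2.61 CPM in Cx43FL. On their most counted transcripts all of these overlapped between genotypes. The shorter transcript of Slc36a4, however, had more counts in every Cx43KO library than in any Cx43FL library. Among the shorter transcripts of Slc43a2, that of 1161 bases had 28, 7 and 14 counts in Cx43FL and 243, 169 and 98 in Cx43KO. That of 744 bases had 25, 114 and 40 counts against 6, 43 and 30. The counts of these shorter transcripts were not scaled for depth, and none of them was tested.

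Slc7a6os, whose product takes part in the nuclear import of RNA polymerase II, had 24.8, 36.8 and 22.1 CPM in the 3 Cx43FL libraries and 1.86, 11.2 and 29.7 CPM in those of Cx43KO. Its log2 fold change of -0.97 (± 0.77 SE, edgeR adjusted p = 0.716) was among the lowest of the 36. It was -0.46 without Cx43KO replicate 1 and -2.09 without replicate 3. Its neighbour, the transporter Slc7a6, was counted less, with 0.663 to 7.71 CPM in littermates and 1.12 to 5.87 CPM in Cx43KO.

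**Figure D5:**
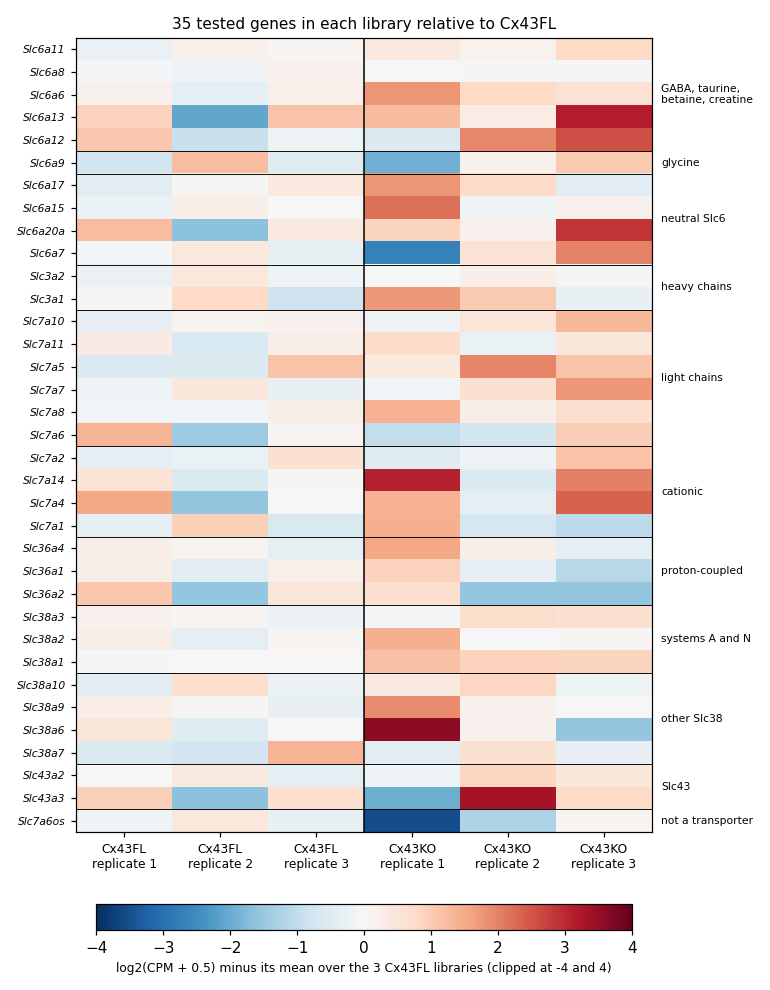
Log2(CPM + 0.5) of 35 tested genes in each library minus its mean over the 3 Cx43FL libraries, by colour (red higher, blue lower), with the genes grouped by role. Slc38a1 and Slc6a6 are red in all 3 Cx43KO columns, Slc38a9, Slc6a15, Slc6a17 and Slc38a2 mainly in that of replicate 1, and Slc6a13 and Slc6a20a mainly in that of replicate 3.

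The enzymes and carriers that work beside these transporters were taken from lists of known function. Of 11 genes of GABA, glutamate and glutamine metabolism, all tested, 1 had an unadjusted p below 0.05 upwards and 1 downwards, beside 5.66% and 2.67% of all tested genes, and 0 passed after adjustment. Gad2, which makes GABA and marks inhibitory neurons, had 61.9, 61.8 and 82.2 CPM in the 3 Cx43FL libraries and 313, 143 and 120 CPM in those of Cx43KO (log2 fold change 1.48, adjusted p = 0.490 from edgeR's test). Gpt2, the mitochondrial alanine aminotransferase, was the lower one, with a log2 fold change of -0.82 (adjusted p = 0.554). Glul, the glutamine synthetase of astrocytes, had 8960, 8936 and 9217 CPM in littermates and 2906, 6182 and 7418 CPM in Cx43KO, below every Cx43FL library, with a log2 fold change of -0.72 (± 0.36 SE, edgeR adjusted p = 0.609). It was lowest in Cx43KO replicate 1, as was the sum of the astrocyte markers, to which it belongs. Abat, which degrades GABA, overlapped between genotypes, at 409 to 524 and 456 to 551 CPM.

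Of 17 other amino acid carriers, 14 were tested, 2 with an unadjusted p below 0.05 upwards (Slc16a10 and Slc17a7) and 1 downwards (Slc25a18), where all tested genes gave 5.66% and 2.67%. Slc17a7, the vesicular glutamate carrier of excitatory neurons, was at 367 CPM in Cx43KO replicate 1 and at 41.2 to 67.3 CPM elsewhere. Slc25a18, a mitochondrial glutamate carrier, had 395 to 471 CPM in the 3 Cx43FL libraries and 124 to 328 CPM in those of Cx43KO. Among 10 genes of glycine and serine metabolism and 6 of taurine and creatine synthesis, 0 had an unadjusted p below 0.05. Among 13 tested genes of the amino acid response of Atf4, 1 was lower at that limit (Cth) and 0 higher, and among 13 genes of lysosomal amino acid sensing 2 were lower (Rraga and Lamtor2) and 0 higher, again beside 2.67% lower and 5.66% higher of all tested genes. In none of these lists did a gene pass after adjustment.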

How the data were processed

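Polysomal mRNAs of hippocampal astrocytes were sequenced in 3 libraries of each genotype. Reads were filtered by the authors in Eoulsan and aligned to mm10 with STAR, without those of several matches, and they deposited raw counts on Ensembl transcripts from HTSeq-count (HTSeq 0.5.3 per the labels). Of the 75466 transcripts, 73157 were matched to GENCODE M21 (GRCm38) and 2309 were not (1.60% to 1.78% of counts). A read can be counted on several transcripts, and each gene was taken by its most counted transcript.

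edgeR 4.0.16 in R 4.3.3 was used with TMM, filterByExpr and the quasi-likelihood F test on genotype alone, with Benjamini-Hochberg adjustment over 13545 genes. Standard errors (SE) were taken as the size of a log2 fold change over the root of its F. Exact permutation tests used log2(CPM + 0.5) in scipy 1.17.1. Alternatives were 2 other scalings, 2 other filters, DESeq2 1.42.0 with and without its prior, the replicate block, summed transcripts, each library left out, and other pseudocounts. A level on the shortest transcript with 90% of the counts was added after the data were seen. On simulated data the edgeR step recovered 74.5% of 200 genes changed by a log2 of 3, with 9 false calls. Smaller changes, such as most of those seen here, were not simulated. No pair of libraries of a genotype agreed within sampling noise (chi-square per degree of freedom 33.7 or more).

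The members and lists were chosen with earlier results of these data known. Genes named with every library's value are the 12 of highest level per kb, those with an unadjusted p below 0.05 or without overlap, and 15 listed by role. The other members, Slc6a15, Slc6a17 and Slc6a20a among them, were named to complete the role groups after their values had been seen. Results for 1 gene covered by this rule are not reported here, and it is left out of the figures, while the counts and medians over the tested genes include it.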

Additional observations from a re-analysis of the deposited data

How the results depend on the processing

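The number of the genes with an adjusted p below 0.05 was 0 under edgeR and DESeq2 in every alternative run, leaving out a library included. The number with an unadjusted p below 0.05 that were higher in Cx43KO, 3 as reported, was 6 without the low-count filter and 5 with DESeq2 without its prior, and ranged from 2 to 7 with a library left out (5 without Cx43KO replicate 1, 7 without replicate 3). The number that were lower, 0 as reported, was 1 in both of these settings and ranged from 0 to 2 with a library left out. The median log2 fold change, 0.68 as reported, was 0.45 with at least 10 counts in every library, 0.38 with DESeq2 and its prior, 0.46 with the replicate block, and 0.36 to 0.77 with a library left out. The filters and DESeq2 tested other numbers of genes (29 to 49 of the 57). For the other changes the cause was not tested.

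No pairing by replicate number was seen, as same-numbered libraries correlated at -0.0389 to -0.00706 in their deviations from the genotype mean. Since libraries of a genotype differed widely, these values cannot exclude a weaker pairing. With the replicate block the number of all genes called went from 1 to 2 (11 without Cx43KO replicate 1), and it remained 0 among the 36. The other pseudocounts left the number of genes at the smallest exact p at 3.

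Among the refits of genes named by the rule, 253 kept their direction and 11 did not. Slc3a2 turned to -0.028 with upper-quartile factors, and ranged from -0.12 to 0.26 with a library left out. With summed transcripts Slc6a8 turned to 0.035 and Slc6a9 to 0.040. With a library left out, Slc6a8 ranged from -0.14 to 0.024, Slc6a9 from -0.85 to 0.84, Slc38a2 from -0.0031 to 0.88, and Slc7a2 from -0.42 to 0.64. Of the members outside that rule, some also turned in direction with a library left out, and ranged from -0.84 to 3.16 (Slc38a6), -0.070 to 1.02 (Slc36a4), -0.74 to 0.40 (Slc36a1), -0.50 to 2.44 (Slc43a3), -1.10 to 0.83 (Slc7a1), -0.39 to 1.55 (Slc6a7), -0.92 to 0.92 (Slc38a7) and -1.57 to 0.62 (Slc7a6). Not a single one of them passed after adjustment. Genes with few counts are limited by depth, 3 counts being 0.0864 to 0.203 CPM before TMM scaling.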
